A study of Homo sapiens with 15 samples.

Results

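Ribosomes are built in the nucleolus by a large set of proteins that are not part of the finished particle, and 53 genes of such factors were followed here across drug treatment and gene silencing in OCI-AML5, an established human acute myeloid leukaemia cell line. The genes were chosen by symbol for their known place in ribosome assembly and their link to the transcription factor MYC. The choice was made with earlier results of these data known, so comparisons with all tested genes are descriptions. All 53 were found among the 19620 rows of each deposited table, and all 53 passed the filter on low values (a mean of at least 1 FPKM, the fragments mapped to a gene per kilobase of its transcript, relative to library size). The 15 RNA libraries formed 5 groups of 3. Cells, kept in 20% serum with GM-CSF at 10 ng/mL, were left untreated, or received OTX015 or ARV-825 for 4 h, each at 1000 nM. In another experiment the same line carried a non-targeting shRNA (shNT) or an shRNA labelled as directed at RUNX1 for 72 h. OTX015 blocks the acetyl-lysine pockets of the BET proteins, a family of transcription coactivators. ARV-825 is a PROTAC, a molecule built from an OTX015-type ligand, a linker and a ligand of the ubiquitin ligase component cereblon, which leads to destruction of the BET proteins. All groups share the line's genetic background, which the series describes as mutant for RUNX1, and the labels do not give the hairpin.

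Ribosome production begins when RNA polymerase I, guided by UBTF and other initiation factors, transcribes the ribosomal RNA precursor. Small nucleolar ribonucleoproteins (snoRNPs) then methylate and pseudouridylate the precursor, and processing complexes fold and cut it into the RNAs of the small (40S) and the large (60S) subunit. MYC is well known as an activator of genes at each of these steps, and enlarged nucleoli are a classical feature of fast-growing leukaemia cells.

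The deposited values were read as FPKM that the authors had quantile normalized within each table, and the number of reads behind a library is unknown. Changes are differences of log2(FPKM + 1), each with its standard error (SE), tested with limma with Benjamini-Hochberg adjustment over all tested genes at an adjusted p of 0.05. Settings under which a followed call changed are named beside it. The exception is the fit with the replicate number as a block, whose changed calls are listed with the other alternatives at the end. Most genes without a call between the drugs or with the shRNA were not followed, so calls they gained in an alternative are not named. Two-sided tests were run on 10819 genes in the drug table and 10925 in the shRNA table. The samples are described as biologic triplicates, so the p-values reflect differences among these libraries only, and some of that spread may be technical. The median FPKM per library lay between 1.80 and 1.92 with ARV-825, between 2.06 and 2.10 with OTX015 and between 2.15 and 2.20 in control, and the part of this shift in the results was not tested. Of 7 myeloid markers, PTPRC, CD33, SPI1, CD68 and LYZ had group means of at least 34.2 FPKM, while MPO and CSF2RA did not exceed 2.58 FPKM. The mean of SPI1 was 208 FPKM in control and 59.9 and 61.4 with ARV-825 and OTX015, and its part in the results was not tested. Of 10 markers of T, B, erythroid, epithelial and fibroblast cells, the highest group mean was 0.841 FPKM. MYC, the reference gene, stood at 287, 295 and 281 FPKM in control, 114, 111 and 114 with OTX015 and 24.1, 21.4 and 23.6 with ARV-825. All control libraries lay above all OTX015 libraries, which lay above all ARV-825 libraries. The log2 change of MYC was -3.59 ± 0.048 with ARV-825 and -1.34 ± 0.048 with OTX015. In bulk RNA, fewer cells expressing a gene and less RNA per cell cannot be told apart.

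Both drugs lowered nearly all of the assembly factors within 4 h. With ARV-825, 48 of the 53 genes fell, 1 rose (RRN3) and 4 did not pass the test (NHP2, BOP1, TAF1D and NPM1), while 38.4% of all tested genes fell and 35.8% rose (74.2% called in all). The median log2 change of the 53 genes was -0.88, beside -0.0080 over all tested genes. Falls of at least 1 on the log2 scale were called for 19 of the 53, and for 8.16% of all tested genes. With OTX015, 50 of the 53 fell, 0 rose and 3 did not pass the test (RRN3, TAF1D and NPM1), beside 33.5% lower and 36.1% higher over all tested genes (69.6% called in all). The median was -0.83, beside 0.032 over all tested genes, and 20 of the 53 fell by at least 1, compared with 4.96% of all tested genes. All 3 ARV-825 libraries lay below all 3 controls in 48 of the 53 genes, against 39.3% of all tested genes. All 3 OTX015 libraries did so in 49, against 36.1%.

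**Figure D1:**
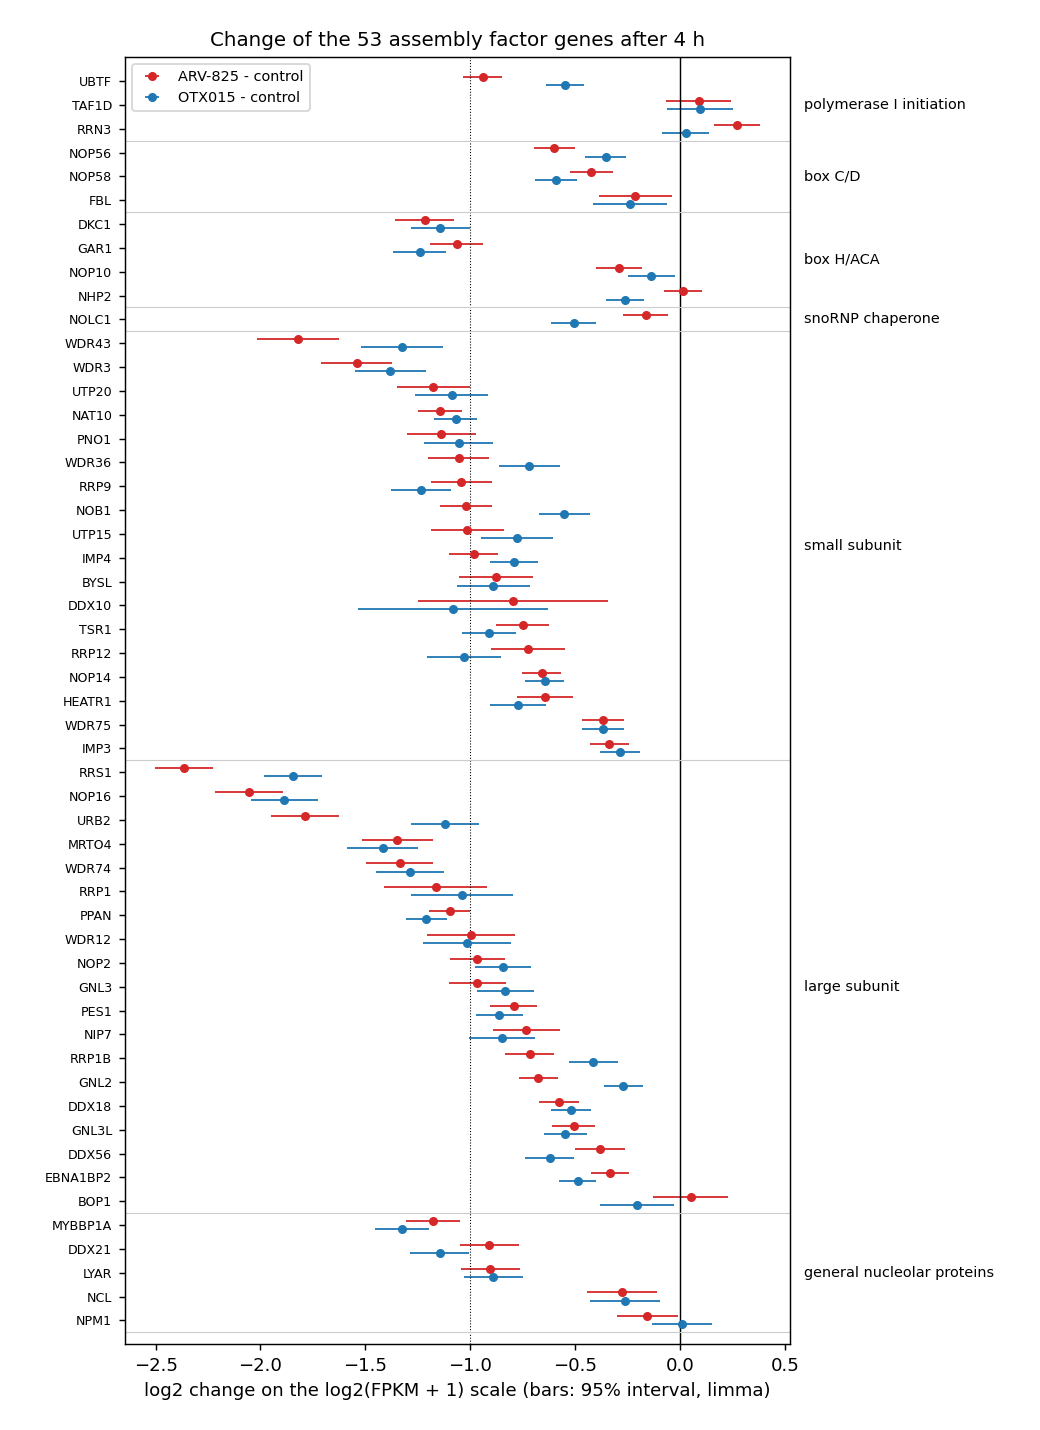
Log2 change of each of the 53 genes with ARV-825 (red) and OTX015 (blue) against control on the horizontal axis, with 95% intervals from limma, genes grouped by role and ordered by the ARV-825 change; n = 3 libraries per group and the dotted line marks a change of -1. RRS1 and NOP16 lie furthest to the left, and RRN3 with ARV-825 (0.27) is the only called rise.

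The fall was seen in each treated library. Taken as the median over the 53 genes of each library's deviation from the control mean, it was -0.90, -0.96 and -0.77 in the 3 ARV-825 libraries and -0.82, -0.81 and -0.79 in the 3 OTX015 libraries. The 3 control libraries themselves lay at 0.043, -0.041 and -0.00076. Treated and control libraries therefore did not overlap in this measure. Summed FPKM over the 53 genes, of which NPM1 and NCL make up more than any other members, ran from 3919 to 4131 with ARV-825, from 4099.8 to 4251 with OTX015 and from 5173 to 5277 in control. Without NPM1 and NCL the sums were 1556 to 1608, 1568 to 1586 and 2373 to 2555. Neither sum overlapped between drug-treated and control libraries.

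The 3 genes of RNA polymerase I initiation did not move together. UBTF, which binds and opens the ribosomal DNA promoter, stood at 47.2, 45.7 and 45.6 FPKM in control, 32.03, 30.2 and 31.5 with OTX015 and 23.2, 23.3 and 24.2 with ARV-825. It fell with both drugs, without overlap between any of the 3 groups, with log2 changes of -0.94 with ARV-825 and -0.55 with OTX015 (SE 0.041 for both). RRN3, the factor that brings active polymerase I to the promoter, stood at 15.4, 14.6 and 14.3 FPKM in control, 14.7, 15.3 and 15.1 with OTX015 and 17.7, 17.6 and 18.7 with ARV-825. The ARV-825 libraries were above all others, whereas OTX015 and control overlapped. RRN3 rose by 0.27 ± 0.050 (adjusted p = 0.000533) with ARV-825, and its change with OTX015 was 0.028 (95% interval -0.083 to 0.14, adjusted p = 0.638). The annotation holds 3 pseudogenes named after RRN3, so its reads may be shared with near-identical copies. TAF1D, a subunit of the promoter selectivity factor SL1, stood at 61.1, 51.6 and 51.2 FPKM in control, 56.2, 56.7 and 62.04 with OTX015 and 58.2, 60.7 and 55.2 with ARV-825. Control replicate 1 was high and the groups overlapped. Its changes were 0.089 (-0.067 to 0.25) with ARV-825 and 0.096 (-0.060 to 0.25) with OTX015, and both passed the test as rises without control replicate 1 (adjusted p = 0.022 and 0.0202).

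**Figure D2:**
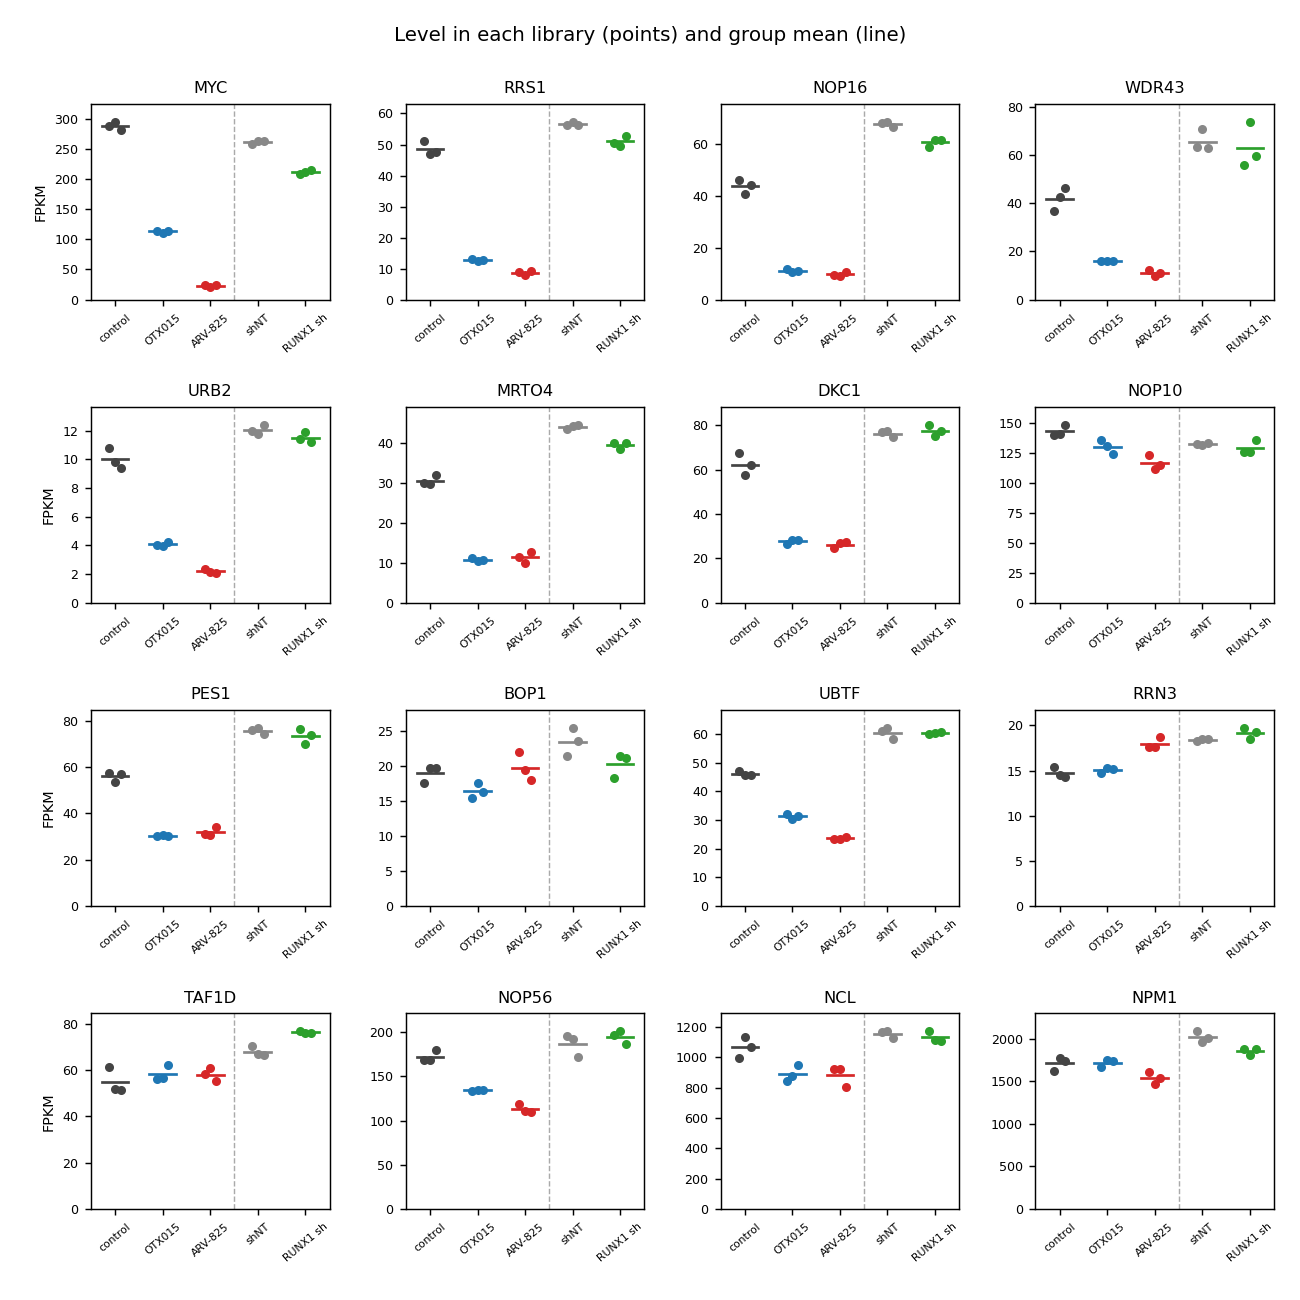
FPKM of MYC and 15 of the assembly factors in each of the 15 libraries (points) with the group mean (line), on linear axes from 0; the dashed line separates the drug table from the separately normalized shRNA table, whose levels are not compared with it. RRS1, NOP16, WDR43, URB2, MRTO4, DKC1 and PES1 show treated libraries well below control, while BOP1, RRN3, TAF1D and NPM1 do not.

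The core proteins of the box C/D snoRNPs, which methylate ribosomal RNA on its ribose groups, showed small falls. NOP56, a scaffold protein of the particle, stood at 168, 169 and 179.6 FPKM in control, 133, 135 and 135 with OTX015 and 119, 111 and 109.6 with ARV-825. Its 3 groups did not overlap, and it fell, with log2 changes of -0.60 ± 0.044 (adjusted p = 4.35e-07) with ARV-825 and -0.35 ± 0.044 (adjusted p = 3.44e-05) with OTX015. NOP58, the second scaffold protein, stood at 71.04, 65.4 and 68.6 FPKM in control, 44.9, 47.03 and 43.2 with OTX015 and 50.7, 49.8 and 51.8 with ARV-825. Here the OTX015 libraries were the lowest, and the log2 changes were -0.42 with ARV-825 and -0.59 with OTX015. FBL (fibrillarin), the methyltransferase itself, stood at 243, 194 and 204 FPKM in control, 182, 189 and 169.9 with OTX015 and 196, 177 and 178 with ARV-825. Control replicate 1 was the highest value and ARV-825 replicate 1 overlapped the controls. FBL fell, with log2 changes of -0.21 ± 0.080 (adjusted p = 0.0323) and -0.24 ± 0.080 (adjusted p = 0.0207). The first call was lost with no filter on low values and without ARV-825 replicate 2 or 3 or control replicate 1 (adjusted p = 0.0696 to 0.119), and the second with no filter on low values and without control replicate 1 or OTX015 replicate 3 (adjusted p = 0.0521 to 0.0745).

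Of the 4 core proteins of the box H/ACA snoRNPs, which convert uridine to pseudouridine, DKC1 and GAR1 fell by more than 1 on the log2 scale, and NOP10 and NHP2 had far smaller changes. DKC1 (dyskerin), the pseudouridine synthase, stood at 67.3, 57.5 and 62.1 FPKM in control, 26.4, 28.4 and 28.1 with OTX015 and 24.5, 26.8 and 27.4 with ARV-825. GAR1, which binds dyskerin and helps release the modified RNA, stood at 29.2, 27.5 and 27.7 FPKM in control, 11.04, 11.1 and 11.8 with OTX015 and 12.3, 12.7 and 13.9 with ARV-825. For both genes every treated library lay far below control, with changes of -1.22 ± 0.064 (adjusted p = 3.53e-08) and -1.06 ± 0.057 (adjusted p = 4.19e-08) with ARV-825 and of -1.14 and -1.24 with OTX015. NOP10, the smallest core protein, stood at 139.9, 141 and 148 FPKM in control, 136, 131 and 124 with OTX015 and 123, 112 and 115 with ARV-825. The OTX015 libraries lay just under control and the ARV-825 libraries below both, and it fell, with log2 changes of -0.29 ± 0.050 (adjusted p = 0.000303) with ARV-825 and -0.14 ± 0.050 (adjusted p = 0.0317) with OTX015. The OTX015 call was lost with no mean-variance trend and without control replicate 2 or 3 or OTX015 replicate 2 or 3 (adjusted p = 0.0519 to 0.118). NHP2, which binds the RNA in the particle, stood at 156, 144 and 149 FPKM in control, 126, 124 and 123 with OTX015 and 153, 147 and 153 with ARV-825. ARV-825 and control overlapped fully while OTX015 was lower, with changes of 0.014 (95% interval -0.077 to 0.10) and -0.26 ± 0.041 (adjusted p = 0.000182). NOLC1, a chaperone of both kinds of snoRNP, stood at 94.04, 87.6 and 89.05 FPKM in control, 61.4, 62.4 and 65.9 with OTX015 and 80.1, 84.7 and 76.6 with ARV-825. It fell in both, without overlap, with log2 changes of -0.16 ± 0.049 (adjusted p = 0.0107) with ARV-825 and -0.51 ± 0.049 (adjusted p = 5.04e-06) with OTX015.

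All 18 genes of small subunit assembly fell with ARV-825 (median -0.998, from -1.82 to -0.34) and all 18 with OTX015 (median -0.90, from -1.38 to -0.29). The shares lower among all tested genes were 38.4% with ARV-825 and 33.5% with OTX015. Among the t-UTP proteins, which bind the nascent precursor first, WDR43 stood at 36.7, 42.6 and 46.3 FPKM in control, 15.9, 16.2 and 16 with OTX015 and 12.4, 9.97 and 10.97 with ARV-825. The treated libraries were all below the lowest control, and WDR43 fell, with log2 changes of -1.82 ± 0.089 (adjusted p = 2.09e-08) with ARV-825 and -1.32 ± 0.089 (adjusted p = 3.15e-07) with OTX015. UTP15, of the same complex, stood at 11.4, 9.81 and 10.2 FPKM in control, 5.76, 5.53 and 5.81 with OTX015 and 5.11, 4.72 and 4.26 with ARV-825, HEATR1 at 36.3, 32.6 and 33.4 FPKM in control, 18.9, 19.1 and 20.7 with OTX015 and 20.7, 22.9 and 20.7 with ARV-825, and WDR75 at 24.6, 23.2 and 23.9 FPKM in control, 18.5, 18.3 and 18.1 with OTX015 and 17.7, 18.5 and 18.7 with ARV-825. None of these 3 overlapped with control. Their log2 changes were -1.01, -0.64 and -0.37 with ARV-825 and -0.78, -0.77 and -0.37 with OTX015, so that within this complex WDR43 fell most and WDR75 least.

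WDR3 and WDR36, which belong to the UTP-B complex that joins after t-UTP, stood at 23.6, 20.9 and 22.6 FPKM in control, 8.04, 8.56 and 7.37 with OTX015 and 7.29, 6.39 and 7.45 with ARV-825, and at 19.8, 18.1 and 19.4 FPKM in control, 11.3, 10.4 and 11.9 with OTX015 and 8.58, 9.14 and 8.27 with ARV-825. Both lay below control in every treated library, with changes of -1.54 ± 0.076 (adjusted p = 2.33e-08) and -1.06 ± 0.066 (adjusted p = 1.2e-07) with ARV-825 and -1.38 and -0.72 with OTX015. The IMP3 and IMP4 proteins, which bind the U3 snoRNP together with MPP10, were both lowered. IMP4 stood at 61.9, 59.03 and 64.7 FPKM in control, 34.5, 36.2 and 35.3 with OTX015 and 32.4, 28.8 and 31.3 with ARV-825. IMP3 stood at 36.5, 35.4 and 37.4 FPKM in control, 30.7, 29.5 and 28.9 with OTX015 and 28.7, 28.02 and 29.2 with ARV-825. The changes of IMP4 were -0.98 with ARV-825 and -0.79 with OTX015, while those of IMP3 were -0.34 and -0.29, with no overlap with control for either gene.

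UTP20, a large scaffold protein, had the lowest control level of the 53 genes and stood at 7.08, 6.38 and 6.62 FPKM in control, 2.56, 2.51 and 2.79 with OTX015 and 2.55, 2.53 and 2.14 with ARV-825. It fell, with log2 changes of -1.18 ± 0.078 (adjusted p = 2.06e-07) and -1.09 ± 0.078 (adjusted p = 5.45e-07). DDX10, an RNA helicase of the small subunit path, stood at 15.4, 12.6 and 12.1 FPKM in control, 5.71, 5.90 and 5.61 with OTX015 and 5.25, 6.15 and 11.5 with ARV-825. ARV-825 replicate 3 lay above the other treated libraries and just under the lowest control, and the spread of this gene was the widest of the 53 (SE 0.20). Its changes were -0.80 ± 0.20 (adjusted p = 0.00467) with ARV-825 and -1.08 ± 0.20 (adjusted p = 0.000719) with OTX015. NOP14, a component of the small subunit processome, stood at 43.5, 42.1 and 44.3 FPKM in control, 26.7, 26.9 and 28.5 with OTX015 and 26.9, 26.96 and 27.3 with ARV-825 and fell, with log2 changes of -0.66 with ARV-825 and -0.64 with OTX015. RRP9, a protein specific to the U3 snoRNP, and NAT10, the acetyltransferase of 18S ribosomal RNA, also fell in both, with log2 changes of -1.04 and -1.14 with ARV-825 and -1.23 and -1.07 with OTX015.

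The late small subunit factors act in part after export to the cytoplasm. NOB1, the nuclease that makes the final cut of 18S ribosomal RNA, stood at 38.9, 38.8 and 39.7 FPKM in control, 27.5, 27.02 and 24.7 with OTX015 and 18.4, 17.97 and 20.2 with ARV-825, with the ARV-825 libraries well under the OTX015 libraries. PNO1, its binding partner, stood at 13.8, 14.4 and 14.6 FPKM in control, 6.23, 6.02 and 6.83 with OTX015 and 5.40, 6.51 and 5.97 with ARV-825, with the treated groups overlapping each other. NOB1 changed by -1.02 ± 0.056 (adjusted p = 4.64e-08) with ARV-825 and -0.55 ± 0.056 (adjusted p = 7.03e-06) with OTX015, and PNO1 by -1.14 and -1.06. BYSL, TSR1 and RRP12, which help late precursors mature and leave the nucleus, stood at 14.8 ± 0.653, 24.8 ± 1.38 and 27.3 ± 0.845 FPKM in control (mean ± SD, n = 3). With ARV-825 the BYSL libraries held 7.45, 7.02 and 8.40 FPKM, the TSR1 libraries 14.7, 13.5 and 14.7 and the RRP12 libraries 14.5, 15.5 and 18.7. With OTX015 they held 7.68, 8.15 and 6.84, 12.9, 12.3 and 13 and 13.02, 13.2 and 12.4 FPKM. All were below the lowest control, at 14.8, 14.2 and 15.5 FPKM for BYSL, 26.3, 23.6 and 24.4 for TSR1 and 28.2, 27.2 and 26.5 for RRP12. Their changes were -0.88, -0.75 and -0.72 with ARV-825, and -0.89, -0.91 and -1.03 with OTX015.

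Of the 19 large subunit genes, 18 fell with ARV-825 (median of all 19 -0.97) and 19 with OTX015 (median -0.85), beside 38.4% and 33.5% of all tested genes. RRS1, which helps place the 5S RNA in the early large subunit, had the largest change of the 53 genes with ARV-825 and stood at 51.2, 47.1 and 47.6 FPKM in control, 13.2, 12.5 and 12.7 with OTX015 and 8.76, 7.89 and 9.31 with ARV-825. The 3 groups were fully separate, and RRS1 fell, with log2 changes of -2.36 ± 0.063 (adjusted p = 4.68e-10) with ARV-825 and -1.84 ± 0.063 (adjusted p = 3.29e-09) with OTX015. NOP16, a factor of the early large subunit, stood at 46.2, 40.6 and 44.2 FPKM in control, 11.7, 10.5 and 10.96 with OTX015 and 9.63, 8.96 and 10.7 with ARV-825. The drug-treated groups overlapped each other and lay far below control, with changes of -2.05 ± 0.072 (adjusted p = 2.52e-09) and -1.89 ± 0.072 (adjusted p = 6.25e-09). URB2, which acts in early large subunit processing, stood at 10.8, 9.82 and 9.40 FPKM in control, 4.01, 3.95 and 4.22 with OTX015 and 2.34, 2.13 and 2.07 with ARV-825. Its groups were again fully separate, and it fell, with log2 changes of -1.79 ± 0.073 (adjusted p = 6.84e-09) with ARV-825 and -1.12 ± 0.073 (adjusted p = 2.72e-07) with OTX015. MRTO4, which holds the place of the stalk protein P0 on the precursor, stood at 29.8, 29.7 and 31.9 FPKM in control, 11.3, 10.4 and 10.7 with OTX015 and 11.5, 10.0 and 12.7 with ARV-825. Control was above both overlapping drug groups, with changes of -1.35 and -1.42.

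The 3 proteins of the PeBoW complex, which is needed to cut the second internal spacer of the precursor, did not all fall. PES1 stood at 57.2, 53.4 and 57.1 FPKM in control, 30.3, 30.5 and 30.05 with OTX015 and 30.9, 30.5 and 34.2 with ARV-825. WDR12 stood at 68.6, 67.5 and 65.3 FPKM in control, 33.5, 33.1 and 31.7 with OTX015 and 39.5, 33.01 and 27.9 with ARV-825. Both were below control in all treated libraries and fell, with log2 changes of -0.79 ± 0.050 (adjusted p = 1.43e-07) and -0.997 ± 0.095 (adjusted p = 3.19e-06) with ARV-825 and of -0.86 and -1.01 with OTX015. BOP1, the third subunit, stood at 17.5, 19.7 and 19.7 FPKM in control, 15.3, 17.6 and 16.2 with OTX015 and 21.9, 19.4 and 17.9 with ARV-825. Its ARV-825 libraries spanned the controls, and its OTX015 libraries reached just above the lowest control. The change of BOP1 was 0.051 (95% interval -0.13 to 0.23, adjusted p = 0.579) with ARV-825. With OTX015 it fell, with a log2 change of -0.20 ± 0.080 (adjusted p = 0.0418), a call that was lost with no filter on low values, with no mean-variance trend and without control replicate 2 or 3 or OTX015 replicate 1 or 3 (adjusted p = 0.0533 to 0.145).

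Among the nucleolar GTPases, GNL2, a large subunit GTPase, stood at 38.3, 36.6 and 37.04 FPKM in control, 30.2, 31.3 and 30.9 with OTX015 and 23.2, 23.6 and 22.1 with ARV-825, with the 3 groups apart. GNL3 (nucleostemin), abundant in stem and cancer cells, stood at 81.1, 73.7 and 70.4 FPKM in control, 40.5, 39.99 and 44.6 with OTX015 and 39.4, 36.9 and 37.4 with ARV-825. GNL3L, its paralog, stood at 27.04, 27.9 and 26.4 FPKM in control, 17.6, 18.5 and 18.6 with OTX015 and 18.3, 19.4 and 18.7 with ARV-825. All 3 lay below control with each drug, with log2 changes of -0.67, -0.97 and -0.51 with ARV-825 and of -0.27, -0.83 and -0.55 with OTX015. The paralogs RRP1 and RRP1B, scaffold proteins of the large subunit path, stood at 21.2, 15.3 and 19.1 FPKM in control, 8.61, 8.44 and 8.23 with OTX015 and 7.48, 8.66 and 6.82 with ARV-825, and at 25.1, 23.4 and 24.6 FPKM in control, 18, 18.02 and 18.2 with OTX015 and 14.1, 15.4 and 13.9 with ARV-825. The log2 changes of RRP1 were -1.17 ± 0.11 (adjusted p = 2.99e-06) with ARV-825 and -1.04 ± 0.11 (adjusted p = 1.01e-05) with OTX015. Those of RRP1B were -0.72 ± 0.052 (adjusted p = 4.09e-07) and -0.41 ± 0.052 (adjusted p = 3.91e-05). The treated libraries of both were below control, and only RRP1B was also lower with ARV-825 than with OTX015 in every library.

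The other 7 large subunit genes fell with both drugs. WDR74, which works with the ATPase NVL, changed from 34.5 ± 0.899 FPKM in control to 13.1 ± 1.37 with ARV-825 and 13.6 ± 0.913 with OTX015 (mean ± SD, n = 3). PPAN, an assembly factor with a Brix domain, changed from 58.9 ± 0.678 to 27.04 ± 1.41 and 24.9 ± 0.328 FPKM, and NOP2, a methyltransferase of 28S ribosomal RNA, from 41.03 ± 0.430 to 20.6 ± 1.56 and 22.4 ± 1.29 FPKM. In log2 terms the changes with ARV-825 and OTX015 were -1.34 and -1.29 for WDR74, -1.10 and -1.21 for PPAN, and -0.97 and -0.84 for NOP2. Part of the PPAN locus is also read through into P2RY11, and reads of that transcript cannot be set apart here. NIP7, which binds large subunit precursors, changed by -0.73 and -0.85. The helicase genes DDX18 and DDX56 changed by -0.58 and -0.38 with ARV-825 and by -0.52 and -0.62 with OTX015. EBNA1BP2, a partner of RRS1 in early large subunit assembly, changed by -0.33 and -0.49.

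Of the 5 general nucleolar proteins, NPM1 and NCL had the smallest changes. NPM1 (nucleophosmin), a chaperone that is often mutated in this leukaemia, was the highest of the 53 genes and stood at 1620.3, 1768 and 1737 FPKM in control, 1669, 1753 and 1737 with OTX015 and 1603, 1464 and 1534 with ARV-825. The ARV-825 libraries lay under all controls, by a narrow gap, and OTX015 overlapped control. The change with ARV-825 was -0.16 (95% interval -0.30 to -0.011, adjusted p = 0.0506). It became a call with a pseudocount of 0.1, after median-ratio rescaling, with no mean-variance trend and without ARV-825 replicate 1 or control replicate 1 (adjusted p = 0.00925 to 0.0469). With OTX015 it was 0.0098 (-0.14 to 0.15). The annotation holds 45 pseudogenes named after NPM1, more than for any other of the 53 genes. NCL (nucleolin), which binds the precursor and ribosomal DNA, stood at 997, 1135 and 1067 FPKM in control, 845, 879 and 946 with OTX015 and 920.4, 920.4 and 804 with ARV-825 and fell, with log2 changes of -0.28 ± 0.076 (adjusted p = 0.00671) and -0.26 ± 0.076 (adjusted p = 0.00996). The remaining 3 fell further. DDX21, a helicase of ribosomal RNA genes, changed from 110.2 ± 10.9 FPKM in control to 58.1 ± 1.42 with ARV-825 and 49.1 ± 2.04 with OTX015. MYBBP1A, a nucleolar protein that binds MYB and p53, changed from 26.04 ± 1.06 to 10.97 ± 0.579 and 9.79 ± 0.412 FPKM. LYAR, a nucleolar zinc finger protein, held 30.4, 29.2 and 31.1 FPKM in control, 17.1, 15.4 and 15.2 with OTX015 and 15.4, 14.8 and 16.9 with ARV-825, with log2 changes of -0.90 and -0.89 and no overlap between treated and control libraries.

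The most abundant genes had the smaller changes. FPKM, which is per transcript length, ordered the genes by their mean over the 9 drug libraries, a mean that also contains the treated values. The 10 highest (NPM1, NCL, FBL, NHP2, NOP56, NOP10, NOLC1, DDX21, EBNA1BP2 and TAF1D) had a median log2 change of -0.24 with ARV-825 and -0.26 with OTX015. The 10 lowest (WDR36, WDR3, RRP1, RRP9, BYSL, DDX10, PNO1, UTP15, URB2 and UTP20) had medians of -1.10 and -1.07, and the 33 between had -0.90 and -0.84. These are descriptions with no test. Among the 10 highest, DDX21 departed furthest from the group median, with -0.91 and -1.15.

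The promoters of the assembly factors were searched for the E-box CACGTG, the sequence bound by MYC with its partner MAX. RefSeq promoter windows (250 bases before to 50 after the annotated start, GRCh38.p14) were matched for 45 of the 53 genes, and the others (NOLC1, NOP58, DDX18, URB2, RRP12, RRP1B, RRS1 and BOP1) were not matched. The E-box, which reads the same on both strands, was found in 20 of the 45 (44.4%), in 13.2% of the 8412 tested genes with a window and in 8.77% of all 27305 genes of the table. Of the 23 matches in the 20 genes, 19 (82.6%) began within 50 bases of the start, against 38.5% of 1355 matches in tested genes. The genes were chosen partly for their link to MYC, so a higher share than in all tested genes may follow from that choice. A match is a description of letters and says nothing of binding in these cells. The following sites, 30 bases each with the E-box in capitals, are shown because they belong to genes with large (WDR43, MRTO4, UTP20, NAT10, DDX21) and small (FBL, NOP10) falls.
WDR43 (chr2:28894658-28894687, plus strand): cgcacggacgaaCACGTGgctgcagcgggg
MRTO4 (chr1:19251807-19251836, plus strand): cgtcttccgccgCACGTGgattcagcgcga
UTP20 (chr12:101280083-101280112, plus strand): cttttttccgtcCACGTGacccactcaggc
NAT10 (chr11:34105602-34105631, plus strand): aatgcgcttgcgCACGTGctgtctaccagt
DDX21 (chr10:68956604-68956633, plus strand): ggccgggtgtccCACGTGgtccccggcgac
FBL (chr19:39846356-39846385, minus strand): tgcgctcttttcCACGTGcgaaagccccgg
NOP10 (chr15:34343130-34343159, minus strand): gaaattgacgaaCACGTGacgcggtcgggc
WDR43 and MRTO4 changed by -1.82 and -1.35 with ARV-825, whereas FBL and NOP10, whose sites shown also lie close to the start, changed by -0.21 and -0.29. NOP10 holds another E-box, not shown, at -170 bases from the start. Over all 45 genes, those with an E-box had a median change of -0.97 with ARV-825 and -0.89 with OTX015 (20 genes), and those without it -0.75 and -0.72 (25 genes). The ranges overlapped widely, from -1.82 to -0.21 with the E-box and from -2.05 to 0.27 without it for ARV-825. NOP16, with no E-box in its window, was among the genes that fell most.

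**Figure D3:**
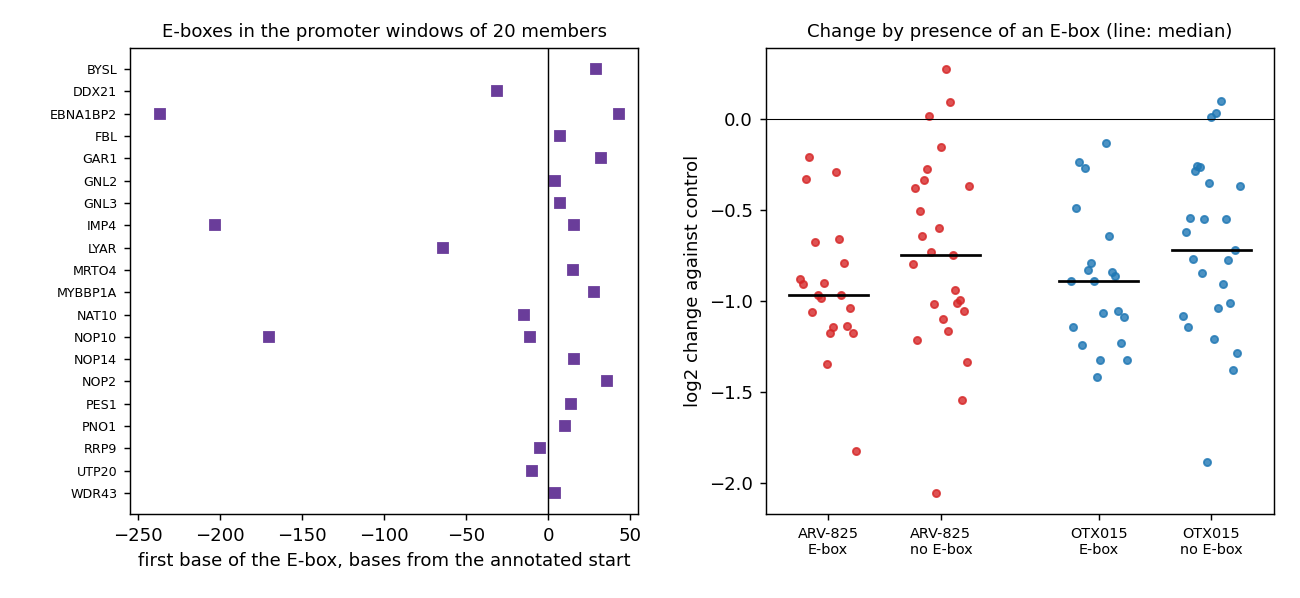
Left, first base of each E-box in bases from the annotated start in the windows of the 20 genes that hold one; right, log2 changes with ARV-825 (red) and OTX015 (blue) of the 20 genes with and the 25 without an E-box, with the median as a line. Most sites cluster around the start, and the 2 sets of changes overlap.

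The other motifs were also searched on both strands. The variant E-box CACGCG was found in 31.1% of the 45 genes and 23.3% of tested genes. The ETS factor motif CCGGAAG was found in 37.8% and 24.5%, and the YY1 motif GCCATCT in 8.89% and 10.0%. Among 75 other assembly factors with a window, CACGTG was found in 33.3%, and among 68 ribosomal protein genes in 7.35%.

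Another shared feature was not used in choosing the genes. In GENCODE release 29, 9 of the 53 genes (16.98%) carry snoRNA genes within them, beside 1.37% of 19940 protein-coding genes. The 53 all passed the filter on low values, whereas the 19940 were not filtered, and the share among tested genes was not computed. The hosts were NOP56, NOP58, NCL, DKC1, WDR43, TAF1D, GNL3, PPAN and TSR1, and TAF1D held the most, 8. The median changes of the 9 hosts were -0.75 with ARV-825 and -0.83 with OTX015, beside -0.89 and -0.82 in the 44 others. The tables list coding genes, and snoRNA levels were not analysed here. Exons of 18 of the 53 genes, among them NOP16, NHP2 and TAF1D, overlap a coding gene on the opposite strand. Strandedness is not stated, so reads of such pairs cannot be told apart. Pseudogenes named after them are annotated for 13 of the 53 genes.

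Most of the wider assembly machinery also fell, and few genes of the ribosomal proteins passed the test. Of 86 other assembly factors outside the 53, 67 fell and 5 rose with ARV-825 (median -0.55), and 67 fell and 4 rose with OTX015 (median -0.44). The largest changes were in UTP18, of the UTP-B complex (-2.02 with ARV-825 and -1.68 with OTX015), RPF2, which acts with RRS1 (-1.75 and -1.22), and LTV1, a late small subunit factor (-1.73 and -1.09). With OTX015, MAK16 (-1.22) took the third place. Of 84 tested genes of cytosolic ribosomal proteins, listed by the form of their symbols, 6 rose and 2 fell with ARV-825 (median 0.057), and 5 rose and 4 fell with OTX015 (median 0.0059). The largest changes among them were in the paralogs RPL7L1 (-0.60 with ARV-825 and -0.55 with OTX015) and RPL39L (-0.45 with ARV-825), and in RPL12 (0.29 and 0.31). RPL39L was near the filter on low values, with group means of 1.33 FPKM in control and 0.758 with ARV-825. Over all tested genes, 74.2% were called with ARV-825 (38.4% lower and 35.8% higher) and 69.6% with OTX015 (33.5% lower and 36.1% higher). With ARV-825 the groups lay apart in 16 ribosomal protein genes higher and 2 lower, against 36.8% and 39.3% of all tested genes. With OTX015 they did so in 13 higher and 11 lower, against 39.3% and 36.1%. RPL12 held an identical value in all control libraries (SD 0), and the part of quantile normalization in these results was not tested.

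ARV-825 and OTX015, which share the BET ligand and differ by the linker and cereblon ligand, were compared directly at the same dose and time. This was the only pair of compounds. Of the 53 genes, 13 were higher with ARV-825 and 13 lower, beside 24.7% higher and 33.4% lower over all tested genes, and 27 did not pass the test. None of the 53 was lower with ARV-825 by 1 or more on the log2 scale, beside 1.05% of all tested genes. The libraries did not overlap in 16 genes lower and 16 genes higher with ARV-825, against 35.2% and 26.8% of all tested genes. Over all tested genes 58.1% were called between the drugs. The median difference was -0.014 on the log2 scale, beside -0.040 over all tested genes. MYC differed by -2.25 ± 0.048, from 113 ± 1.87 FPKM with OTX015 to 23.03 ± 1.47 with ARV-825 (mean ± SD, n = 3).

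**Figure D4:**
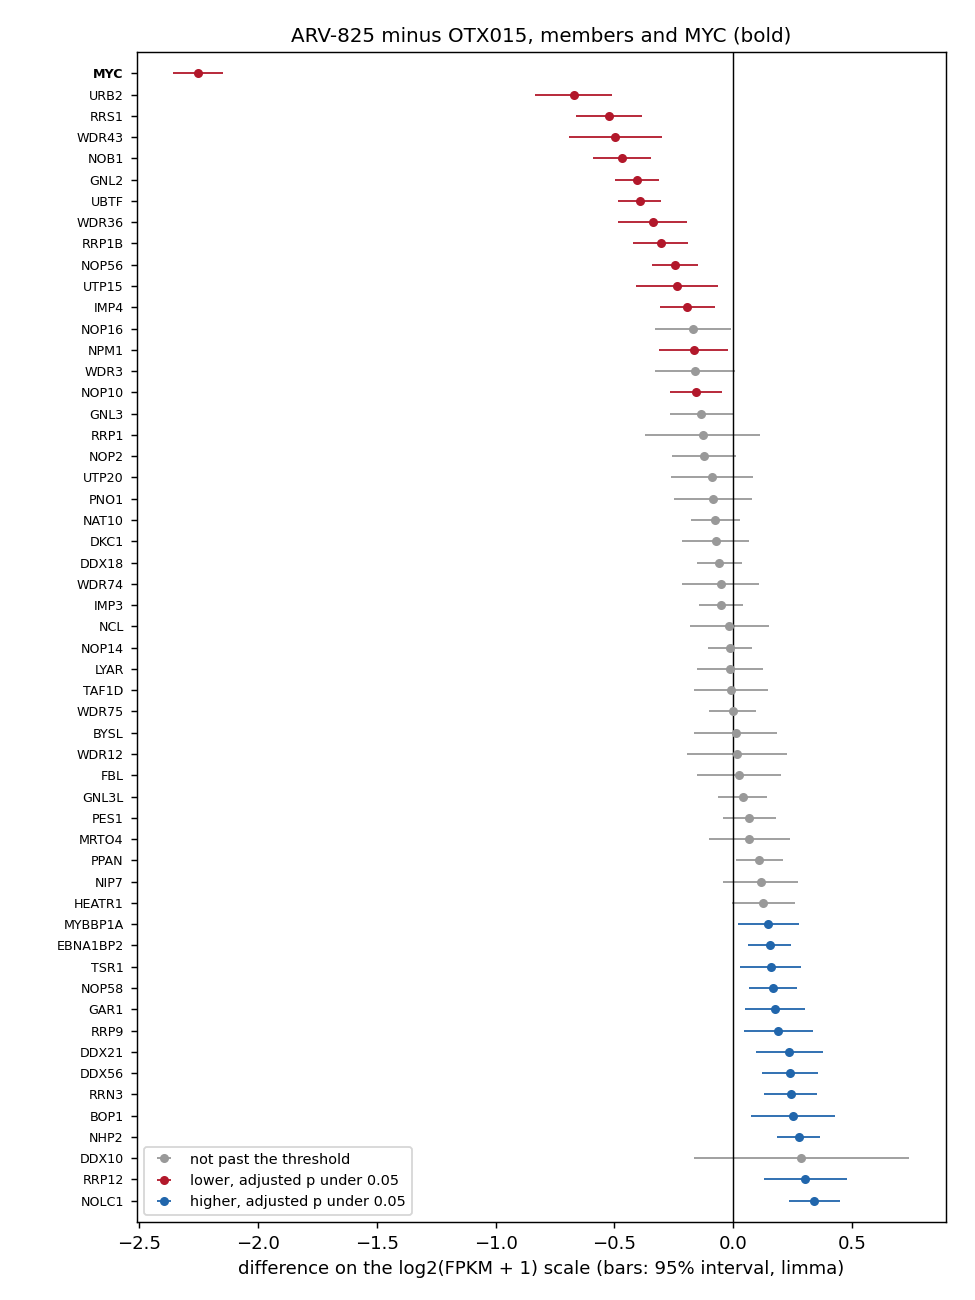
Difference between ARV-825 and OTX015 (log2 scale, with 95% intervals, n = 3 libraries per group) for each of the 53 genes and MYC; red marks genes lower and blue genes higher with ARV-825 at the threshold. MYC lies at -2.25, whereas the 53 genes lie between -0.67 and 0.34.

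The genes lower with ARV-825 were led by URB2 (-0.67 ± 0.073 (adjusted p = 3.28e-05)), RRS1 (-0.52 ± 0.063 (adjusted p = 5.8e-05)), WDR43 (-0.50 ± 0.089 (adjusted p = 0.00076)), NOB1 (-0.47 ± 0.056 (adjusted p = 5.5e-05)) and GNL2 (-0.40 ± 0.042 (adjusted p = 2.49e-05)). In these 5 genes every ARV-825 library lay below every OTX015 library. UBTF followed with -0.39, WDR36 with -0.34, RRP1B with -0.30, NOP56 with -0.25, and IMP4 with -0.19. UTP15 (-0.24), NPM1 (-0.17) and NOP10 (-0.16) were also called. The call of UTP15 was lost without ARV-825 replicate 3 or OTX015 replicate 1 or 3 (adjusted p = 0.059 to 0.0752). That of NOP10 was lost without ARV-825 replicate 2 or 3 or OTX015 replicate 1 or 2 (adjusted p = 0.0544 to 0.0823). That of NPM1, at an adjusted p of 0.0499, was lost with no filter on low values, at a mean of at least 5 FPKM, after median-ratio rescaling, with only the 2 groups in the fit and without ARV-825 replicate 2 or 3 or control replicate 1 or 2 or 3 or OTX015 replicate 1 or 2 or 3 (adjusted p = 0.0505 to 0.142).

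The genes higher with ARV-825 were led by NOLC1 (0.34 ± 0.049 (adjusted p = 0.000179)), RRP12 (0.31 ± 0.079 (adjusted p = 0.00716)), NHP2 (0.28 ± 0.041 (adjusted p = 0.000226)), BOP1 (0.25 ± 0.080 (adjusted p = 0.0189)) and RRN3 (0.24 ± 0.050 (adjusted p = 0.00186)). In these 5 every ARV-825 library lay above every OTX015 library, as the values given with each gene show. DDX56 (0.24), DDX21 (0.24), NOP58 (0.17) and EBNA1BP2 (0.15) were further ones. RRP9 (0.19), GAR1 (0.18), TSR1 (0.16) and MYBBP1A (0.15) completed the 13. The call of BOP1 was lost without ARV-825 replicate 1 or OTX015 replicate 1 (adjusted p = 0.0747 to 0.0802), that of RRP9 with only the 2 groups in the fit and without ARV-825 replicate 2 or 3 or OTX015 replicate 3 (adjusted p = 0.0513 to 0.0899), and that of GAR1 with only the 2 groups in the fit and without ARV-825 replicate 3 or OTX015 replicate 1 or 2 (adjusted p = 0.0504 to 0.0726). The call of TSR1 was lost with only the 2 groups in the fit and without ARV-825 replicate 1 or 3 or control replicate 3 or OTX015 replicate 1 or 2 (adjusted p = 0.0518 to 0.112). That of MYBBP1A was lost with only the 2 groups in the fit and without ARV-825 replicate 2 or 3 or control replicate 1 or 2 or 3 or OTX015 replicate 2 or 3 (adjusted p = 0.0551 to 0.126).

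For 26 of the 27 genes with no call between the drugs, the 95% interval of the difference lay within 0.5 on either side of 0. The exception was DDX10, at 0.29 (-0.17 to 0.74). NOP16, at -0.17 (-0.33 to -0.0081), became a call without ARV-825 replicate 3 (adjusted p = 0.0195). Differences closest to 0 were seen for WDR75 (-0.00056, -0.10 to 0.099), TAF1D (-0.0066, -0.16 to 0.15) and BYSL (0.011, -0.16 to 0.19). These intervals bound the difference and do not show that the compounds act alike. Both directions occurred within single complexes. In box C/D, NOP56 was lower and NOP58 higher with ARV-825. In box H/ACA, NOP10 was lower and NHP2 and GAR1 were higher. Among the other assembly factors, 30 of 86 were lower and 13 higher with ARV-825 (median -0.13), and among the ribosomal proteins 4 of 84 were higher and 0 lower. The share lower among the other assembly factors (34.9%) was close to the 33.4% of all tested genes. Their share higher was 15.1%, beside 24.7%.

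The shRNA experiment gave small changes. RUNX1 stood at 69.8, 72.2 and 69.8 FPKM with shNT and 37.2, 42.9 and 36.03 with RUNX1 shRNA, a log2 change of -0.85 without overlap (adjusted p = 3.71e-05), and the library titles of that group name Runx3 whereas the treatment label names RUNX1, which was followed. MYC stood at 258, 264 and 262 FPKM with shNT and 208, 211 and 216 with RUNX1 shRNA (-0.31). Of the 53 assembly factors, 13 fell, 3 rose and 37 did not pass the test, so 30.2% were called, beside 27.4% of all tested genes (13.8% lower and 13.5% higher). The share called in both directions together is close to the background. By direction, 24.5% of the 53 genes were lower and 5.66% higher, and this skew was not tested. The median change was -0.039, beside -0.0091 over all tested genes, and no fall reached 1 on the log2 scale, beside 0.165% of all tested genes. The 2 groups did not overlap in 17 genes in the lower direction and 7 in the higher, against 22.6% and 21.5% of all tested genes. The median deviation from the shNT mean over the 53 genes was -0.025, -0.048 and -0.068 in the 3 RUNX1 shRNA libraries, and -0.0028, 0.0084 and -0.013 in the 3 shNT libraries.

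**Figure D5:**
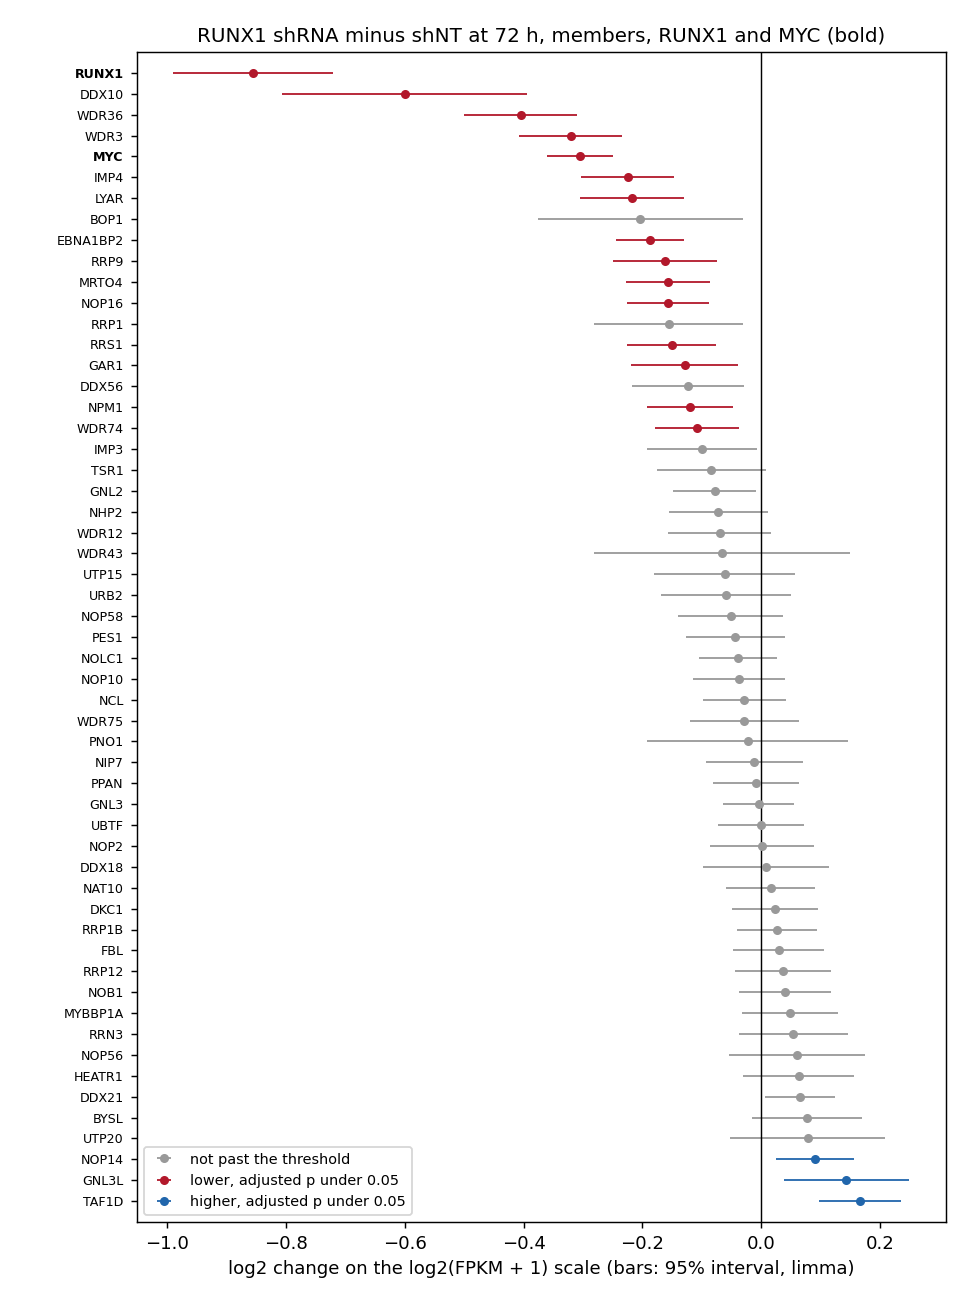
Log2 change between RUNX1 shRNA and shNT at 72 h, with 95% intervals from limma (n = 3 libraries per group), for the 53 genes with RUNX1 and MYC in bold; red marks called falls and blue called rises. Most of the 53 genes lie within 0.2 of 0, and DDX10, WDR36 and WDR3 fell most.

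The largest falls with RUNX1 shRNA were in the small subunit helicase gene DDX10 and the UTP-B genes WDR36 and WDR3. DDX10 stood at 19.8, 22.5 and 19.1 FPKM with shNT and 15.2, 12.2 and 12.2 with RUNX1 shRNA. WDR36 stood at 20.95, 20.7 and 20.5 FPKM with shNT and 15.9, 15.5 and 14.9 with RUNX1 shRNA, and WDR3 at 27.4, 27.5 and 26.3 FPKM with shNT and 21.2, 21.2 and 22.1 with RUNX1 shRNA. The groups were separate in all 3, with changes of -0.60 ± 0.090 (adjusted p = 0.002), -0.40 ± 0.041 (adjusted p = 0.000294) and -0.32 ± 0.038 (adjusted p = 0.000618). IMP4 stood at 84.7, 89.7 and 87.5 FPKM with shNT and 74.99, 71.96 and 76.8 with RUNX1 shRNA, and LYAR at 39.5, 41.2 and 39.6 FPKM with shNT and 35.9, 33.6 and 33.6 with RUNX1 shRNA. They fell, with log2 changes of -0.22 ± 0.034 (adjusted p = 0.0021) and -0.22 ± 0.038 (adjusted p = 0.00424), again without overlap. The other falls were EBNA1BP2 (-0.19), RRP9 (-0.16), MRTO4 (-0.16), NOP16 (-0.16), RRS1 (-0.15), GAR1 (-0.13), NPM1 (-0.12) and WDR74 (-0.11). The call of RRP9 was lost without shNT replicate 2 or 3 (adjusted p = 0.0515 to 0.066) and that of GAR1 with no filter on low values, with no mean-variance trend and without RUNX1 shRNA replicate 1 or 2 or shNT replicate 1 or 2 or 3 (adjusted p = 0.0584 to 0.146). The call of NPM1 was lost with no filter on low values, with no mean-variance trend and without RUNX1 shRNA replicate 2 or shNT replicate 1 or 3 (adjusted p = 0.0651 to 0.0762), and that of WDR74 with no mean-variance trend and without RUNX1 shRNA replicate 1 or 2 or shNT replicate 1 or 2 or 3 (adjusted p = 0.0669 to 0.121).

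The 3 rises were TAF1D, GNL3L and NOP14. TAF1D stood at 70.3, 66.9 and 66.3 FPKM with shNT and 76.7, 75.9 and 75.9 with RUNX1 shRNA, with the groups apart, and rose by 0.17 ± 0.030 (adjusted p = 0.00505). GNL3L stood at 32.5, 32.8 and 36.2 FPKM with shNT and 36.7, 37.2 and 38.4 with RUNX1 shRNA, a rise of 0.14 ± 0.046 (adjusted p = 0.0499), and NOP14 at 54.7, 53.3 and 54.1 FPKM with shNT and 58.9, 56.8 and 57.2 with RUNX1 shRNA, a rise of 0.091 ± 0.029 (adjusted p = 0.0474). The call of GNL3L was lost with a pseudocount of 0.1, with no filter on low values, with no mean-variance trend and without RUNX1 shRNA replicate 1 or 2 or 3 or shNT replicate 1 or 2 (adjusted p = 0.0505 to 0.154), and that of NOP14 with no mean-variance trend and without RUNX1 shRNA replicate 1 or 2 or 3 or shNT replicate 1 or 2 or 3 (adjusted p = 0.0563 to 0.149). TAF1D kept its call in every alternative that was run. Apart from GAR1, the snoRNP core genes did not pass the test, with box C/D genes between -0.051 and 0.060 and DKC1, NOP10 and NHP2 at 0.024, -0.037 and -0.072. Of the genes with the largest falls under the drugs, WDR43 stood at 63.5, 70.8 and 62.9 FPKM with shNT and 55.8, 73.9 and 59.6 with RUNX1 shRNA, with RUNX1 shRNA replicate 2 above all other libraries, and URB2 at 11.97, 11.8 and 12.4 FPKM with shNT and 11.4, 11.9 and 11.2 with RUNX1 shRNA, with the groups overlapping. Their changes were -0.066 (-0.28 to 0.15) and -0.059 (-0.17 to 0.050). Among 37 uncalled genes, every 95% interval lay within 0.5 of 0. Of the other assembly factors, 23 of 85 tested fell and 3 rose (median -0.080), and of the ribosomal proteins 4 rose and 2 fell of 84. All tested genes had 13.8% lower and 13.5% higher.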

How the data were processed

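RNA of 15 OCI-AML5 libraries was analysed from 2 deposited tables of protein-coding genes, 9 drug libraries and 6 shRNA libraries. The authors deposited normalized values, read here as FPKM with quantile normalization inside each table: no unit is named, but Cufflinks 2.0, with TopHat2 2.0 and hg19, appears per the submitters' processing notes, and values are fractional, never negative and often identical across libraries. The annotation, strandedness and read depth are not given in the sources used here, so no counting interval was computed. Sums ran from 554570 to 656995 FPKM per library. Such values hide any change in the total RNA of a cell.

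Groups follow the treatment labels. From each table, 16 Y-chromosome copies of pseudoautosomal genes were left out. All tests used log2(FPKM + 1), on which changes of genes at low levels are understated. Genes whose mean reached 1 FPKM were fitted with limma 3.58.1 (R 4.3.3, mean-variance trend, two-sided), with Benjamini-Hochberg adjustment over all tested genes and 95% intervals. The drug libraries shared 1 fit for 3 contrasts, and the shRNA libraries had their own. The procedure was tested on simulated data.

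The 53 genes, the lists of other assembly factors and ribosomal proteins, the roles and the motifs were chosen with earlier results of these data known. Values in every library are given for the 5 largest called changes per contrast and direction, the 5 highest and 5 lowest genes by control level, and the small complexes. RefSeq promoters and GENCODE 29 annotation are of GRCh38 and served only for sequences, positions and gene overlaps. Alternatives were a pseudocount of 0.1, no filter or a mean of at least 5 FPKM, median-ratio rescaling, no trend, only the 2 groups compared, a replicate block, and leaving out each library in turn.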

Additional observations from a re-analysis of the deposited data

How the results depend on the processing

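Numbers of called genes among the 53 stayed within 1.5 times the reported counts in most alternatives. Over all alternatives, 9 to 14 genes were higher between the drugs and 9 to 14 fell with RUNX1 shRNA. Leaving out each library gave 47 to 49 falls and 1 to 2 rises with ARV-825, 47 to 50 falls and 0 to 1 rises with OTX015, 10 to 13 lower and 10 to 12 higher genes between the drugs, and 9 to 14 falls and 1 to 2 rises with RUNX1 shRNA. The added rise with each drug, TAF1D, came without control replicate 1, and with no mean-variance trend the shRNA rises numbered 1. Called or named changes kept direction and side of the threshold in all alternatives for 48 of 53 genes with ARV-825, 47 of 53 with OTX015, 19 of 28 between the drugs and 10 of 16 with the shRNA.

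The sign turned only for changes that did not pass the test: with ARV-825, NHP2 without control replicate 2 (-0.013) and BOP1 without ARV-825 replicate 1 (-0.023) or control replicate 1 (-0.0029), with ranges over left-out libraries of -0.013 to 0.044 and -0.023 to 0.12; with OTX015, RRN3 after median-ratio rescaling (-0.0072) and NPM1 after that rescaling (-0.028), without control replicate 1 (-0.028) or without OTX015 replicate 2 (-0.0042), with a range of -0.028 to 0.035. The cause was not tested. In the main fit the replicate numbers were not used as pairs. Deviations of same-numbered libraries correlated at -0.32 to 0.061, which does not show whether they were handled together. ARV-825 replicate 2 and OTX015 replicate 3 correlated at 0.41. The replicate block gave 48 falls and 1 rise with ARV-825, 49 and 0 with OTX015, 13 lower and 12 higher between the drugs, and 13 falls and 2 rises with RUNX1 shRNA. Among the calls that were followed, 5 were lost under the block. They were BOP1 with OTX015 (adjusted p = 0.0658), NPM1 (0.0783) and MYBBP1A (0.0861) between the drugs, and NOP14 (0.0718) and WDR74 (0.073) with RUNX1 shRNA. Between the drugs, NOP16 became a call (0.0463). Genes without a call with RUNX1 shRNA were left out of this list, so a fall gained there under the block is not named. Unknown depth and groups of 3 limit precision.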
